A study of Mus musculus with 11 samples.

Results

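The heat shock chaperones described here are 10 genes of a deposited liver expression table of 31280 genes, and all 10 were found by gene name. They were read as 3 classes, set by textbook roles. The inducible class holds 5 genes, Hspa1a, Hspa1b, Dnajb1, Hsph1 and Hsp90aa1. The small heat shock proteins are 2 genes, Hspb1 and Hspb8, and the constitutive class holds 3 genes, Hspa8, Hsp90ab1 and Hspe1. The libraries came from livers of wild-type C57BL/6 mice, and each library was 1 animal. The limonin group had 6 mice, which received the MCD diet for 8 weeks and limonin by the intragastric route at 100 mg/kg, for 4 weeks. The MCD group had 5 mice on the same 8 weeks of diet with intragastric water. MCD is the usual short name of the methionine- and choline-deficient diet, a dietary model of steatohepatitis, and limonin is a triterpenoid of citrus seeds. Both groups share the diet, so the comparison is of limonin on the diet with the diet alone, and no mice fed a complete diet are part of the data used here. The labels used here give neither age nor sex of the animals.

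Chaperones hold unfolded or newly made proteins until they fold. HSP70 proteins bind and release clients in a cycle of ATP hydrolysis that J-domain proteins start and nucleotide exchange factors end, HSP90 proteins take over clients that are partly folded, and small heat shock proteins keep damaged proteins soluble without ATP. The transcription factor HSF1 is held inactive by chaperones, and when unfolded protein draws these away it binds heat shock elements, inverted repeats of the letters GAA and TTC, and raises the inducible genes. Constitutive relatives such as Hspa8 and Hsp90ab1 are made in all cells under normal conditions, and the liver, which secretes much protein, holds a large amount of both.

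The start regions are shown first because heat shock elements are the sites through which HSF1 acts. RefSeq start regions on build GRCm38.p6, from 250 bases before to 50 bases after each start, were at hand for 7 of the 10 genes, which excludes Hsp90aa1, Hspa8 and Hsp90ab1. They were searched on both strands for the letters GAANNTTC and TTCNNGAA, each of which reads the same on both strands. One or both forms were present in 15.1% of the 32851 start regions of the table, GAANNTTC in 7.86% and TTCNNGAA in 8.52%. At least one match was found in 6 of the 7 genes, and Dnajb1 had none. Dnajb1 and Hsph1 each have 2 start regions, so a count of genes and a share of start regions are not the same measure. A 3-unit form, in which 2 such matches overlap by 3 letters, was present in 0.603% of all start regions and in 2 of the 7 genes, Hsph1 and Hspe1. The 250 bases before the start are given 5′ to 3′ on the strand of the gene, with the 2-unit matches in capitals, for the 4 genes whose transcripts were lower after limonin and for Hspe1, which was not called and has 3 matches in this stretch.
Hspa1a, chr17:34972157-34972406, minus strand: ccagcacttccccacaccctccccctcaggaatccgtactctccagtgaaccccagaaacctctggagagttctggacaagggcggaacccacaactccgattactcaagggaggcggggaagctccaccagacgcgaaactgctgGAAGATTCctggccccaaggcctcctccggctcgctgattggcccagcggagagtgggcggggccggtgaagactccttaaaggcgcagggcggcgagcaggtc
Hspa1b, chr17:34959239-34959488, minus strand: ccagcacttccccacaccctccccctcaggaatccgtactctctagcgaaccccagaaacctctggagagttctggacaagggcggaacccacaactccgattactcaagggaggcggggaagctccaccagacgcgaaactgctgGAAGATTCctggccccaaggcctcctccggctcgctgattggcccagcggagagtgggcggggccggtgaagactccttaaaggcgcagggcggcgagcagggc
Hsph1, chr5:149636337-149636586, minus strand: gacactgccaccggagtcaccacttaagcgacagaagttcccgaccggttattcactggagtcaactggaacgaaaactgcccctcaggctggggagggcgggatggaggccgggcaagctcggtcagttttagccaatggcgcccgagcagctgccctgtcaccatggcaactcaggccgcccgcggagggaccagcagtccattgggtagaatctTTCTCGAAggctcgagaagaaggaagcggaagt
Hspb1, chr5:135887669-135887918, plus strand: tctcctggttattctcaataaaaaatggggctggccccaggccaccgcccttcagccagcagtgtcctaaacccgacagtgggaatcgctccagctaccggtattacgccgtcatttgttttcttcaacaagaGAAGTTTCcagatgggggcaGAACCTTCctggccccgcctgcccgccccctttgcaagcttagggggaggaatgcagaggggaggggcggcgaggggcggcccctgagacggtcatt
Hspe1, chr1:55087898-55088147, plus strand: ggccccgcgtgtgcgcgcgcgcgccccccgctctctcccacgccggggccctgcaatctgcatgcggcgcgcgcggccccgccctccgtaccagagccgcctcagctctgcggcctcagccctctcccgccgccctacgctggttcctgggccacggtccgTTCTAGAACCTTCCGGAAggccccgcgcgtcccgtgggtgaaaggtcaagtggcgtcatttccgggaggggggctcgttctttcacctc

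The Hspa1a and Hspa1b stretches were identical at 247 of 250 bases and both carry GAAGATTC with its first base 104 bases before the start. Hsph1 has TTCTCGAA 33 bases before its start, with TTCTGGAA and GAAAGTTC overlapping from base 37 after it. Hspb1 has GAAGTTTC 117 bases and GAACCTTC 97 bases before the start, separated by other letters. Hspe1 has 3 overlapping matches that begin 89, 84 and 79 bases before its start. Hspe1 shares this region with Hspd1, the gene of its mitochondrial partner, which is read from the other strand. The same run of letters therefore lies 144 to 134 bases before one of the 2 RefSeq starts of Hspd1. Hspb8 has GAAGTTTC from base 3 after the start and none before it. Among these 7 genes, matches were present in the 4 genes called lower and in 2 of the 3 others. The classes do not follow the matches, since Hspe1, read as constitutive, has 3 and Dnajb1, read as inducible, has none.

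**Figure D1:**
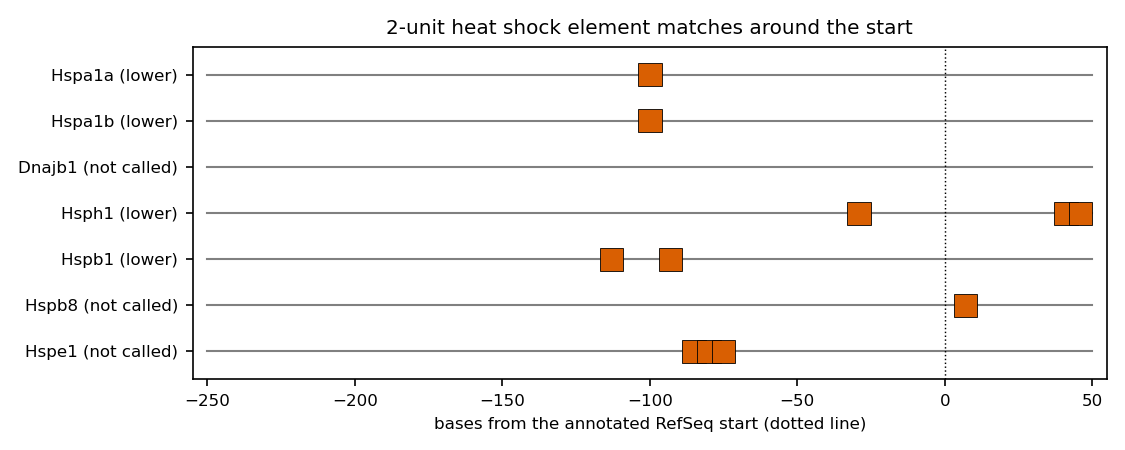
Matches to the 2-unit heat shock element (orange boxes, 8 bases each) in the RefSeq start regions of 7 chaperone genes, from 250 bases before to 50 bases after the start (dotted line); Hsph1 is drawn from the first of its 2 listed starts. Words in brackets give the call for limonin against MCD. Hspe1 shows the 3 overlapping matches and Dnajb1 none.

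Values are FPKM, fragments scaled by transcript length and by the size of the library, as the authors deposited them. Averaged over the 11 libraries, the levels per length were highest for 2 constitutive genes, and the small heat shock genes stood apart from each other. Hspa8 stood at 261 FPKM and Hsp90ab1 at 215 FPKM, Hspb8 at 102 FPKM and Hspe1 at 70.8 FPKM. A gap in level followed. Hsp90aa1 averaged 11.4 FPKM, Hspb1 10.3 FPKM, Dnajb1 6.24 FPKM, Hsph1 4.12 FPKM, Hspa1b 2.69 FPKM and Hspa1a 1.11 FPKM. The order Hspa8 above Hsp90ab1 held within all 11 libraries, and so did Hsph1 above Hspa1b above Hspa1a, although the ranges over libraries meet. The ranges of Hsp90ab1 and Hspb8, and of Hspe1 and Hsp90aa1, did not meet. Hsp90aa1 exceeded Hspb1 in only 6 of 11 libraries and Hspb1 exceeded Dnajb1 in 8 of 11. The place of Hspb1 in this order turned with the group. It averaged 7.27 FPKM with limonin, below Hsp90aa1 at 11.5 FPKM, and 13.9 FPKM on MCD, above Hsp90aa1 at 11.3 FPKM. Hspb8 was higher than Hspb1 in every library although both are small heat shock proteins.

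In limonin livers, 4 of the 10 chaperone genes were called lower and none higher, with none at an unadjusted limma p under 0.05 on the higher side. Those 4 were Hspa1a and Hspa1b, which encode the stress-inducible HSP70, Hsph1, which encodes the nucleotide exchange factor HSP110, and Hspb1, which encodes HSP27. By class, 3 of 5 inducible genes, 1 of 2 small heat shock genes and 0 of 3 constitutive genes were called. Hspa1a is in these counts but passed the filter on low values only through the MCD group, so its call adds nothing to them. Hspa1a and Hspa1b also share much of their sequence, so their calls are not 2 separate results. The test was limma on log2(FPKM + 1) with Benjamini-Hochberg adjustment over 10489 genes at 0.05, and differences are limonin minus MCD on that scale, which understates the change of genes at a few FPKM. Over the whole table, 18.7% of tested genes were called lower, 7.24% higher and 25.9% in either direction. The median difference of the 10 genes was -0.18, against -0.069 over all tested genes. For Hspa1b and Hspa8 the highest limonin library was below the lowest MCD library, a separation that 8.33% of tested genes showed. This holds on deposited FPKM, whose sum was itself lower in every limonin library (404050 to 462665) than in every MCD library (464184 to 471623). Hspa1a was separated too, but the filter on low values fixed that, as set out with its values. The share of higher genes among all calls was 27.9% on deposited FPKM, but 48.1% with libraries scaled by median ratios, 52.9% with quantile-normalized values and 49.6% with summed FPKM set equal, so small differences near zero turn on scaling.

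**Figure D2:**
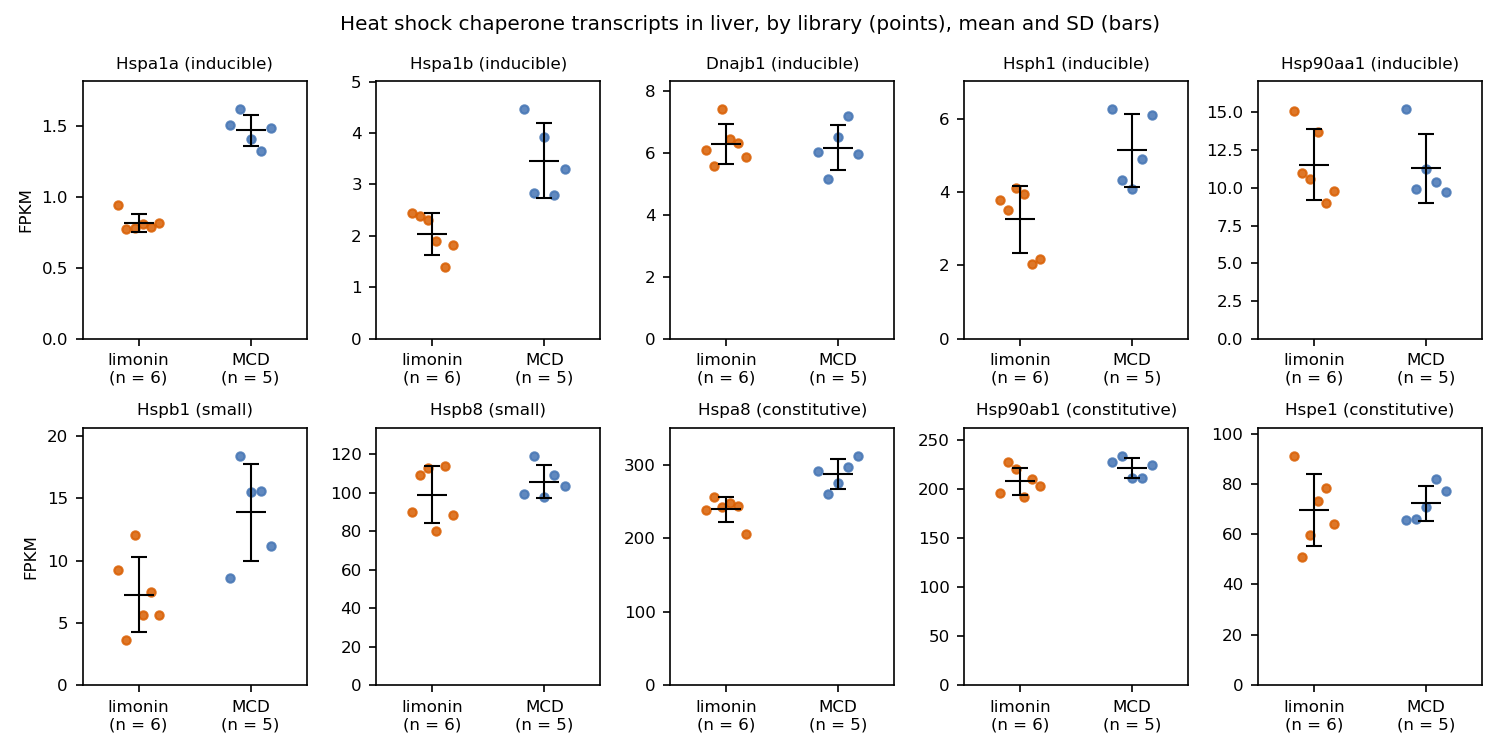
FPKM of the 10 chaperone genes in each liver library (points), with limonin (n = 6) on the left and MCD (n = 5) on the right of each panel; bars are the mean and SD and each panel has its own axis from 0. The groups do not overlap for Hspa1a, Hspa1b and Hspa8, while the points of Dnajb1, Hsp90aa1 and Hspe1 are intermixed.

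Hspa1a and Hspa1b are neighbouring single-exon genes on chromosome 17, at 34969190 to 34972156 and at 34956436 to 34959238 (GRCm38, minus strand). Hspa1b had 1.38 FPKM in the lowest limonin library, a median of 2.10 FPKM and 2.45 FPKM in the highest, against 4.47, 2.83, 3.93, 2.79 and 3.30 FPKM in MCD 1 to 5. The highest limonin library thus lay below the lowest MCD library, with limonin 5 the lowest of all. The means were 2.04 ± 0.411 FPKM with limonin and 3.46 ± 0.725 FPKM on MCD (SD, n = 6 and 5). The difference was -0.55 ± 0.13 (SE, limma adjusted p = 0.00895), and the ratio of mean FPKM was 0.589. This call remained without any one library, with adjusted p between 0.00688 and 0.0276.

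Hspa1a had 0.769 FPKM in the lowest limonin library, a median of 0.797 FPKM and 0.941 FPKM in the highest, against 1.51, 1.62, 1.41, 1.32 and 1.49 FPKM in MCD 1 to 5. All 6 limonin libraries were under 1 FPKM and all 5 MCD libraries above it. The means were 0.816 ± 0.0634 FPKM with limonin and 1.47 ± 0.112 FPKM on MCD, a ratio of 0.556 and a difference of -0.44 ± 0.080 (SE, limma adjusted p = 0.00295). Because a gene had to reach 1 FPKM in 5 or more libraries to be tested, Hspa1a passed only through the MCD group and had to be higher there, so its call adds nothing to the count of genes called. With no filter on low values it was also called (limma adjusted p = 0.0131). Without any one MCD library it was not tested under the filter.

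The coding sequences of Hspa1a and Hspa1b are 99.4% identical in the GENCODE M21 transcripts, with 11 of 1926 aligned columns different, and 47.1% of the windows of 100 bases along Hspa1a also occur in Hspa1b. The authors' quantification had to divide such fragments between the 2 genes, so each value alone is uncertain. Their sum is the safer measure. It ran between 2.17 and 3.39 FPKM in limonin livers and between 4.11 and 5.97 FPKM in MCD livers. The summed means were 2.86 ± 0.439 FPKM with limonin and 4.93 ± 0.737 FPKM on MCD, with a difference of -0.62 ± 0.11 (SE, limma adjusted p = 0.00286). A gene on the opposite strand, Gm20481, overlaps Hspa1a, and the sources used here do not say whether the quantification used strand.

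Hsph1 lies on chromosome 5 at 149614287 to 149636376 and its product resets HSP70 by exchanging its nucleotide. It had 2.04 FPKM in the lowest limonin library, a median of 3.65 FPKM and 4.12 FPKM in the highest, against 6.27, 4.34, 4.09, 4.90 and 6.12 FPKM in MCD 1 to 5. Limonin 5 and 6 were the 2 lowest libraries, near 2 FPKM, and limonin 3 lay just above MCD 3, so 5 of 6 limonin libraries were below every MCD library. The means were 3.26 ± 0.918 FPKM with limonin and 5.14 ± 1.004 FPKM on MCD, with a difference of -0.54 ± 0.16 (SE, limma adjusted p = 0.0251). The call was lost without limonin 6, without MCD 1 and without MCD 5, where limma adjusted p was 0.0511, 0.0666 and 0.0624. It was also lost with equal summed FPKM (limma adjusted p = 0.0814), with no filter on low values (0.0755) and with a block for replicate number (0.0921). The same held without MCD 4 and 5 (limma adjusted p = 0.105) and without limonin 5 and 6 (0.0651).

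Dnajb1 encodes HSP40, the J-domain protein that delivers clients to HSP70, and is a textbook HSF1 target. It had 5.59 FPKM in the lowest limonin library, a median of 6.20 FPKM and 7.42 FPKM in the highest, against 6.04, 5.17, 6.51, 7.19 and 5.98 FPKM in MCD 1 to 5. The libraries of both groups were intermixed. The difference was 0.024 with a 95% interval of -0.19 to 0.23 (limma adjusted p = 0.881), and its sign turned without limonin 3 and without MCD 2. The interval lies above the Hspa1b difference of -0.55.

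Hsp90aa1, the stress-inducible HSP90, was likewise not called. It had 9.02 FPKM in the lowest limonin library, a median of 10.8 FPKM and 15.1 FPKM in the highest, against 15.2, 9.89, 11.3, 10.4 and 9.72 FPKM in MCD 1 to 5. One or 2 libraries of each group stood high, namely limonin 1, limonin 4 and MCD 1, and the others were intermixed. The difference was 0.024 with a 95% interval of -0.28 to 0.33 (limma adjusted p = 0.918), and it was below zero when limonin 1, limonin 4, MCD 2 or MCD 5 was left out. The processed copies Gm12346 and Gm5844 match it over 68.7% and 67.1% of the transcript, and together they were listed at 0.619 FPKM with limonin and 0.592 FPKM on MCD. Within the inducible class, Hspa1a, Hspa1b and Hsph1 were called lower, and the intervals of Dnajb1 and Hsp90aa1 include zero and allow a difference of either sign.

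**Figure D3:**
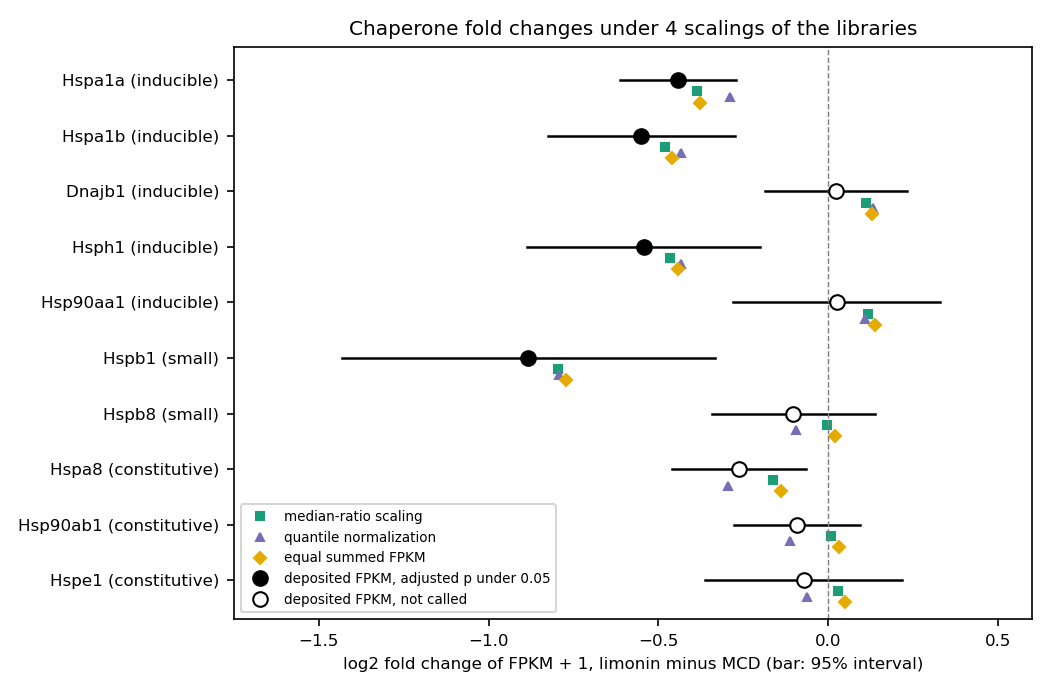
Difference in log2(FPKM + 1), limonin minus MCD, for the 10 chaperone genes: circles are values on deposited FPKM (filled where limma adjusted p was under 0.05) with bars for the 95% interval, and small symbols are values under 3 other scalings of the libraries. Hspa1a, Hspa1b, Hsph1 and Hspb1 stay left of zero under all 4 scalings, and Hspb8, Hsp90ab1 and Hspe1 change sides.

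Hspb1 had the greatest difference of the 10 genes and also the widest spread. This gene, on chromosome 5 at 135887919 to 135889563, encodes HSP27, which binds unfolded proteins and actin filaments. It had 3.66 FPKM in the lowest limonin library, a median of 6.53 FPKM and 12.1 FPKM in the highest, against 8.62, 18.4, 15.5, 15.6 and 11.2 FPKM in MCD 1 to 5. Limonin 1 and limonin 3 lay above MCD 1, and the other 4 limonin libraries below every MCD library. The means were 7.27 ± 3.02 FPKM with limonin and 13.9 ± 3.92 FPKM on MCD, a ratio of 0.524, with a difference of -0.88 ± 0.25 (SE, limma adjusted p = 0.0248). Leaving out limonin 4, limonin 6, MCD 2 or MCD 3 ended the call, with limma adjusted p of 0.0506, 0.0515, 0.0728 and 0.0538. It also ended with no filter on low values (limma adjusted p = 0.0683) and with a block for replicate number (0.119). The same held without MCD 4 and 5 (limma adjusted p = 0.0750) and without limonin 5 and 6 (0.0624). A near-copy, Gm9817, was listed at 0 in MCD libraries and averaged 0.0470 FPKM in limonin libraries.

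Hspb8 encodes HSP22, a small heat shock protein that works with the co-chaperone BAG3 in the removal of aggregated protein by autophagy. It had 80.0 FPKM in the lowest limonin library, a median of 99.6 FPKM and 114 FPKM in the highest, against 99.2, 119, 97.7, 109 and 104 FPKM in MCD 1 to 5. Limonin 4, 6 and 1 lay below every MCD library and the other 3 among them. The difference was -0.10 with a 95% interval of -0.34 to 0.14 (limma adjusted p = 0.522), and 0.019 with equal summed FPKM. Bag3, its partner, averaged 12.7 ± 1.71 FPKM with limonin and 14.3 ± 2.10 FPKM on MCD (difference -0.16 ± 0.11, SE, limma adjusted p = 0.321).

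Hspa8 encodes HSC70, the constitutive HSP70 that also takes part in clathrin uncoating and chaperone-mediated autophagy. It had 207 FPKM in the lowest limonin library, a median of 244 FPKM and 256 FPKM in the highest, against 292, 260.1, 276, 297 and 313 FPKM in MCD 1 to 5. On deposited FPKM all 6 limonin libraries were below all 5 MCD libraries, with limonin 6 far below the other limonin libraries. Whether the groups stay apart on rescaled values was not tested. The means were 239.5 ± 17.1 FPKM with limonin and 288 ± 20.3 FPKM on MCD, a ratio of 0.833 and a difference of -0.26 ± 0.093 (SE), with a 95% interval of -0.46 to -0.065. Its limma adjusted p was 0.0501, just outside the threshold, and a filter at 5 FPKM (0.0493) or a pseudocount of 0.1 (0.0489) put it inside. Median-ratio scaling gave -0.16 and equal summed FPKM -0.14, with limma adjusted p of 0.249 and 0.331. The constitutive count of 0 is therefore a count of calls at a threshold, since 1 of the 3 genes had an unadjusted p under 0.05 (Hspa8, 0.0130).

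Hsp90ab1, the constitutive HSP90, had 192 FPKM in the lowest limonin library, a median of 207 FPKM and 228 FPKM in the highest, against 228, 234, 212, 211 and 225 FPKM in MCD 1 to 5. The groups overlap. The difference was -0.092 with a 95% interval of -0.28 to 0.093 (limma adjusted p = 0.454), and was 0.0091 after median-ratio scaling and 0.031 with equal summed FPKM. Hspe1 encodes HSP10, the lid of the mitochondrial folding chamber built by HSP60. It had 50.9 FPKM in the lowest limonin library, a median of 68.6 FPKM and 91.3 FPKM in the highest, against 65.6, 65.9, 70.8, 81.7 and 77.1 FPKM in MCD 1 to 5. Limonin 1 was the highest library of all and limonin 2 the lowest, so the limonin group held both extremes. The difference was -0.072 with a 95% interval of -0.36 to 0.22 (limma adjusted p = 0.724), and was 0.028 after median-ratio scaling and 0.049 with equal summed FPKM.

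Ratios between related genes within a library do not change when a whole library is multiplied by a factor, and are given without a test. The ratio of Hspa1a plus Hspa1b to Hspa8, multiplied by 1000, averaged 11.96 ± 1.84 in limonin livers and 17.2 ± 2.74 in MCD livers, and 5 of 6 limonin livers were below every MCD liver. Inducible HSP70 transcript was thus lower relative to its constitutive relative as well. The ratio of Dnajb1 to Hspa8 ran the other way, at 26.3 ± 2.96 with limonin and 21.5 ± 2.28 on MCD, also multiplied by 1000, with 5 of 6 limonin livers above every MCD liver. The Dnajb1 means in that ratio were 6.29 FPKM with limonin and 6.18 FPKM on MCD. The ratio of Hsp90aa1 to Hsp90ab1 was 55.9 ± 14.3 with limonin and 50.9 ± 9.98 on MCD, and the groups were intermixed.

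**Figure D4:**
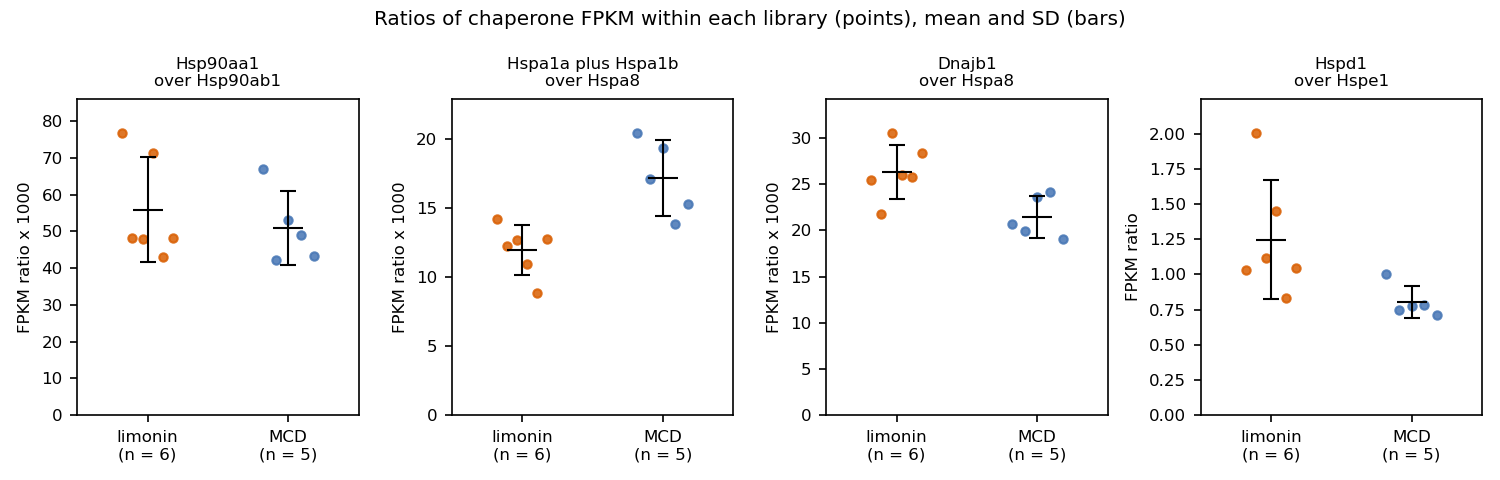
Ratios of chaperone FPKM within each library (points), limonin (n = 6) left and MCD (n = 5) right, with mean and SD; the first 3 ratios are multiplied by 1000. Hspa1a plus Hspa1b over Hspa8 is lower in limonin livers, at 11.96 against 17.2, and Hspd1 over Hspe1 is higher, at 1.25 against 0.805.

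Of the genes that control the response, Hsf1 averaged 2.18 ± 0.197 FPKM in limonin livers and 2.64 ± 0.386 FPKM in MCD livers, and 5 of 6 limonin libraries were below every MCD library. It was not called, with a difference of -0.19 ± 0.095 (SE, limma adjusted p = 0.149). None of the 4 tested genes of the list of HSF1 and its regulators was called by limma, out of 7 listed, with 1 higher and 1 lower at an unadjusted p under 0.05. The authors' deposited table marks 2 of the 7 as up. Transcript level is not a measure of HSF1 activity, which depends on its assembly into trimers and on phosphorylation.

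Neither Hspa4 nor Stip1, which work directly with HSP70 and HSP90, was called. Hspa4, an HSP110 relative of Hsph1, averaged 15.5 ± 2.35 FPKM with limonin and 12.2 ± 1.46 FPKM on MCD, with a difference of 0.31 ± 0.12 (SE, limma adjusted p = 0.0618), opposite in sign to that of Hsph1. Median-ratio scaling, quantile normalization and equal summed FPKM each brought Hspa4 inside the threshold (limma adjusted p = 0.00887, 0.0139 and 0.0370). Weights per library did so too (0.0421), while other filters and pseudocounts left it outside. Stip1, the HOP adaptor that hands clients between HSP70 and HSP90, averaged 30.8 ± 4.00 FPKM with limonin and 32.5 ± 1.67 FPKM on MCD (difference -0.082 ± 0.096, SE, limma adjusted p = 0.556, turning to 0.017 after median-ratio scaling and 0.038 with equal summed FPKM). Among 27 tested co-chaperones of HSP70 and HSP90, 1 was called higher and 2 lower, against 7.24% and 18.7% of all tested genes, with a list median of 0.0025, and with quantile normalization 5 were called higher and 3 lower. The lower 2 were Unc45a, a myosin co-chaperone that works with HSP90, at 2.40 ± 0.318 FPKM with limonin and 3.57 ± 0.475 FPKM on MCD, and Tomm34, a cytosolic adaptor for proteins bound for mitochondria, at 4.82 ± 0.928 FPKM with limonin and 7.27 ± 1.195 FPKM on MCD. Their differences were -0.43 and -0.51, with limma adjusted p of 0.01005 and 0.0109. The higher gene was Fkbp5, a glucocorticoid-responsive HSP90 co-chaperone, at 10.2 ± 1.77 FPKM with limonin and 7.48 ± 1.11 FPKM on MCD (limma adjusted p = 0.0327). The Fkbp5 call was lost in 7 of the 11 fits that leave out 1 library.

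Of 20 tested J-domain genes of the cytosol and nucleus, out of 23 listed, 2 were called lower and none higher, against 18.7% and 7.24% of all tested genes, with a list median of -0.019. Those were Dnajc17 (difference -0.40, limma adjusted p = 0.0344) and Dnajb5 (-0.32, 0.0190), and Dnajb5 passed the filter only through the MCD group. Dnajc17 was not called without limonin 2, 4 or 6 or MCD 1 or 2, and Dnajb5 was not tested without any one MCD library. The direction of this list turned with scaling, since quantile normalization gave 5 genes called higher and none lower. None of the 4 tested genes of the remaining HSP70 family was called by limma, out of 7 listed, and their median was 0.31. Hspa4 alone had an unadjusted p under 0.05, and the authors' deposited table marks 1 of the 7 up and 1 down. In the cytosolic chaperonin CCT and its helper prefoldin, 3 of 14 genes were called lower and none higher, a share near the 18.7% of all tested genes. The called genes were the prefoldin subunits Pfdn5 (-0.58), Pfdn6 (-0.44) and Pfdn1 (-0.34), with limma adjusted p of 0.00461, 0.0325 and 0.0293. Pfdn5 was called in every fit that left out 1 library, while Pfdn6 and Pfdn1 were lost in 7 and 6 of them and under median-ratio scaling, which left 1 gene of this list called lower and 2 called higher.

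Among mitochondrial chaperones and proteases the calls were on the higher side. Of 17 tested genes, out of 18 listed, 5 were called higher and none lower, where 7.24% of all tested genes were called higher, and the list median was 0.17. Clpx, the unfoldase of the ClpXP protease, averaged 23.5 ± 7.49 FPKM with limonin and 11.4 ± 1.14 FPKM on MCD, a difference of 0.93 ± 0.19 (SE, limma adjusted p = 0.00467). Hspa9, the mitochondrial HSP70 called mortalin, averaged 116 ± 26.1 FPKM with limonin and 72.4 ± 7.96 FPKM on MCD, a difference of 0.64 ± 0.14 (SE, limma adjusted p = 0.00742). All 6 limonin libraries lay above all 5 MCD libraries for both genes. The same was true of Dnaja3, the J-domain partner of Hspa9, at 34.98 ± 4.72 FPKM with limonin and 25.2 ± 1.77 FPKM on MCD (limma adjusted p = 0.00741). The share of all tested genes separated in this direction is not given here, so these separations are only a description. Grpel1, the nucleotide exchange factor of Hspa9, averaged 47.6 ± 4.55 FPKM with limonin and 38.2 ± 4.46 FPKM on MCD (limma adjusted p = 0.0344). Clpx, Hspa9 and Dnaja3 were called in all 11 fits that left out 1 library, and Grpel1 in 6. Without limonin 2, without MCD 2 or without MCD 3 the list had 3 genes called higher. With the other 3 scalings it had 6 or 7, and the authors' deposited table marks 2.

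Hspd1 encodes HSP60, which works with the product of Hspe1, and both genes are read from the start region printed above, on opposite strands. Their annotated ends overlap there, and reads at the overlap cannot be assigned without strand. Hspd1 had 94.3, 102, 66.7, 106, 65.3 and 67.1 FPKM in limonin 1 to 6, against 65.7, 49.4, 54.8, 64.2 and 54.9 FPKM in MCD 1 to 5. Limonin 1, 2 and 4 stood high, and the other 3 limonin libraries were close to the highest MCD libraries. The difference was 0.50 ± 0.15 (SE, limma adjusted p = 0.0259), and the call was lost without limonin 2, limonin 4, MCD 2, MCD 3 or MCD 5. The ratio of Hspd1 to Hspe1, a ratio chosen after the values were seen, averaged 1.25 ± 0.423 in limonin livers and 0.805 ± 0.114 in MCD livers, and 5 of 6 limonin livers were above every MCD liver. Limonin 2 had the highest ratio, 2.01, with the second highest Hspd1 value and the lowest Hspe1 value.

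**Figure D5:**
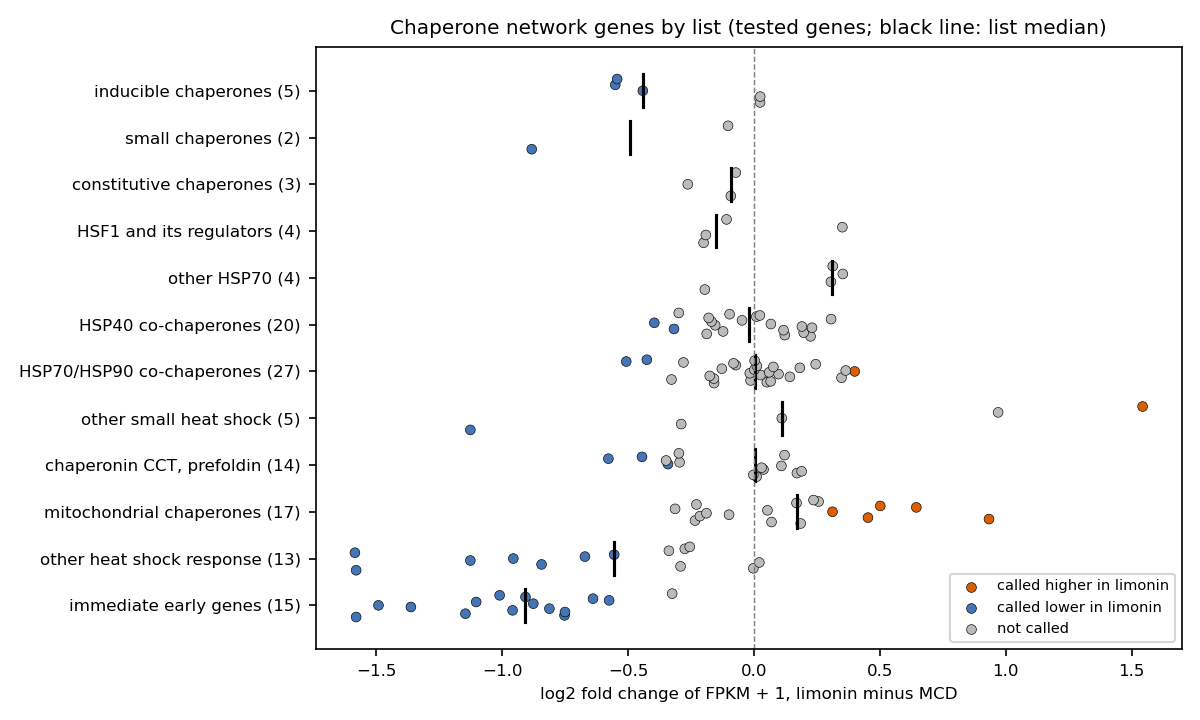
Difference in log2(FPKM + 1), limonin minus MCD, of each tested gene (points) in the chaperone classes and related lists, with the number of tested genes in brackets and a black line at each median. The mitochondrial list holds 5 genes called higher, and the immediate early list 14 of 15 called lower.

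Further lists hold genes that often accompany heat shock transcription. Of 13 tested genes listed as other genes of the heat shock response, 7 were called lower and none higher, against 18.7% of all tested genes called lower, with a median of -0.56. Serpinh1, the collagen chaperone HSP47, averaged 6.47 ± 1.31 FPKM with limonin and 22.4 ± 8.02 FPKM on MCD, a difference of -1.59 ± 0.22 (SE, limma adjusted p = 0.00136). Hmox1, the haem oxygenase, averaged 18.9 ± 2.15 FPKM with limonin and 45.7 ± 20.4 FPKM on MCD (limma adjusted p = 0.00533). Ier5, which is known to promote HSF1 activity, averaged 2.85 ± 0.939 FPKM with limonin and 6.46 ± 1.74 FPKM on MCD (limma adjusted p = 0.00352), and Atf3, a stress-induced repressor, 5.07 ± 2.77 FPKM with limonin and 16.3 ± 5.16 FPKM on MCD (0.00537). Several of these respond to stimuli other than heat, and Serpinh1 is known to be made mainly by collagen-producing cells. Cryab, the αB-crystallin small heat shock protein, was called lower at 3.95 ± 0.922 FPKM with limonin and 9.93 ± 2.79 FPKM on MCD, a difference of -1.13 ± 0.17 (SE, limma adjusted p = 0.00165), and it was called in every fit that left out 1 library. Of the 5 tested genes of its list, 1 was called lower and 1 higher.

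Immediate early genes, which rise within minutes of cell stress or of tissue handling, were mostly lower in limonin livers. Of 15 tested genes, 14 were called lower and none higher, against 18.7% of all tested genes called lower, with a median of -0.91, and the FPKM of the 19 listed genes summed to between 132 and 203 with limonin and between 305 and 377 on MCD. Fos averaged 0.627 ± 0.218 FPKM with limonin and 2.19 ± 0.634 FPKM on MCD (limma adjusted p = 0.00120). Nr4a1 averaged 0.813 ± 0.184 FPKM with limonin and 2.73 ± 0.976 FPKM on MCD, and Jun averaged 7.75 ± 2.20 FPKM with limonin and 23.7 ± 7.46 FPKM on MCD, with limma adjusted p of 0.00137 and 0.00154. Fos and Nr4a1 reached 1 FPKM in all 5 MCD libraries but in only 1 limonin library each, so they passed the filter through the MCD group. Of the 2 cold-inducible RNA-binding genes, Rbm3 was called lower (-0.44, limma adjusted p = 0.0402) and Cirbp was not (-0.11, 0.507, turning to 0.0079 with equal summed FPKM). The Rbm3 call was lost in 6 of the 11 fits that left out 1 library, without limonin 2, 5 or 6 or MCD 1, 2 or 5, and under median-ratio scaling and equal summed FPKM. The part of tissue handling in the chaperone values was not tested.

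Hepatocyte markers were the most abundant of the marker lists in every library. Many markers of stellate cells and cholangiocytes, and part of the macrophage and Kupffer cell list, were lower with limonin. Stellate cell and fibroblast markers were called lower in 11 of 13 tested genes, against 18.7% of all tested genes, with sums of 63.4 to 88.9 FPKM with limonin and 111 to 212 FPKM on MCD. Cholangiocyte markers were called lower in 9 of 9 tested genes out of 12 listed, with sums of 28.9 to 105 FPKM with limonin and 82.4 to 481 FPKM on MCD, and Cftr was under 0.1 FPKM in all libraries. The count was 5 without MCD 1 or without MCD 2. Of the 9, Muc1 and Cldn4 reached 1 FPKM in all 5 MCD libraries but in only 1 limonin library each, so they passed the filter through the MCD group. Macrophage and Kupffer cell markers were called lower in 7 of 13 tested genes out of 14 listed, with sums of 138 to 224 FPKM with limonin and 205 to 734 FPKM on MCD, and the count was 2 without MCD 2. The 7 were C1qa, C1qb, C1qc, Cd68, Csf1r, Trem2 and Lgals3. Gpnmb was not called (limma adjusted p = 0.0511), nor were Clec4f, Vsig4, Cd5l, Marco and Adgre1, with limma adjusted p from 0.255 (Adgre1) to 0.990 (Vsig4). Timd4 was not tested. Endothelial markers had 1 of 10 genes called higher and 2 lower, near the 7.24% and 18.7% of all tested genes. Hepatocyte markers had 4 of 14 called higher and none lower, against 7.24% of all tested genes called higher. Their sums were 47775 to 68541 FPKM with limonin and 47327 to 58800.1 FPKM on MCD. The hepatocyte count was 2 higher without MCD 1 or MCD 2, and 1 or 2 genes were called lower without limonin 4 or limonin 5. In 8 of the 11 fits that left out 1 library the endothelial list had 1 gene called lower, and in 8 it had none called higher. Hspb1, Cryab and Serpinh1 are expressed outside hepatocytes as well. In whole liver, fewer cells of a type and less RNA per cell cannot be told apart, and the part of cell makeup in the chaperone differences was not tested. Muscle and heart markers summed to 3.43 to 3.56 FPKM in limonin 1 to 4, to 14.9 and 9.70 FPKM in limonin 5 and 6, and to 5.19 to 7.58 FPKM on MCD. The only tested gene of that list, Des, was called lower and is also among the stellate cell markers.

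The clock list bears on time of day at collection, which sets part of HSF1 target transcription in liver. Of 15 tested clock genes, 2 were called higher, against 7.24% of all tested genes, and none lower: Nr1d1 at 0.64 (limma adjusted p = 0.00822) and Hlf at 0.48 (0.0134). The list median was 0.0094. The part of collection time was not tested.

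The 5 genes most like Hspa1b over the 11 libraries, by Pearson correlation of log2(FPKM + 1), were Clstn1 (calsyntenin 1, r = 0.94, Spearman rho = 0.94), Agap2 (r = 0.93, rho = 0.91), Plet1 (r = 0.92, rho = 0.92), Trim35 (r = 0.92, rho = 0.92) and Pamr1 (r = 0.91, rho = 0.87). These are descriptions over libraries that share the group difference, and all 5 genes were called lower. With the group means taken out, r lay between 0.73 and 0.81. The genes were picked by r over these same libraries, so neither these values nor their calls are separate evidence of likeness. None of the other 9 chaperone genes could enter this ranking, since it was made over the remaining genes.

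The authors' deposited table marks the same 4 genes as down, Hspa1a (fold 0.556, q = 4.25e-06), Hspa1b (0.589, q = 0.00444), Hsph1 (0.634, q = 0.0272) and Hspb1 (0.524, q = 0.0195). That mark is carried by 6.92% of the 31280 genes in the authors' deposited table in this direction. The authors' deposited table gives Hspa8 a fold of 0.833 with q = 0.626 and does not mark it. It marks Hspa9 as up (fold 1.60, q = 2.13e-05), and in the authors' deposited table Hspd1 has q = 0.000614 but no mark, its fold of 1.45 lying under the 1.5 that all marked genes reach.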

How the data were processed

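Poly(A)-selected RNA of 11 mouse livers was sequenced as libraries made with a strand-marking protocol, per the labels' protocols. The submitters' processing notes name cutadapt 1.9, HISAT2 2.0.4 and StringTie 1.3.4d, and a human build name although the gene identifiers are those of mouse. The authors deposited FPKM per gene and library, with a fold (the ratio of mean FPKM, limonin over MCD), its log2, a p-value and a q-value, as the file headers name them. All of these are values the authors deposited. Positions of genes are from GENCODE M21 (GRCm38) and start regions from RefSeq (GRCm38.p6). The depth is not stated: steps in low FPKM imply about 15520000 to 19630000 fragments per library, but only 27.2% to 31.1% of low values came within 0.1 of a whole fragment, so no count test was run. So low a share does not establish the steps. If they hold, Hspa1a rests on about 41 to 54 fragments per limonin library and 65 to 91 per MCD library.

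The 10489 genes that reached 1 FPKM in 5 or more libraries were tested with limma 3.58.1 (R 4.3.3; trend and robust) on log2(FPKM + 1), two-sided and adjusted over all genes tested. The test was checked on simulated data. All labels carry 1 batch value. Same-numbered libraries of the 2 groups did not deviate together (r over 0.1 in 1 of 5 pairs), so the numbers were not used as pairs. The members and lists were chosen with earlier results of these data known. All 10 members are named, of each chaperone or stress list up to 4 called genes in order of p, and Hsf1, Hspd1, Bag3, Hspa4 and Stip1 in any case. The genes named beside them as copies or overlapping genes came from the annotation. Near-identical transcripts were found with minimap2 2.31 (at least 95% identity over at least 25% of the transcript). Alternatives were other filters, pseudocounts, scalings, variance models, left-out libraries and a summed row for Hspa1a and Hspa1b.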

Additional observations from a re-analysis of the deposited data

Results flagged for a closer look

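Within 30 groups of values (15 genes, each in limonin and in MCD livers), 3 single libraries stood apart from the others of their group by Dixon's test, and chance flags about 1 in 20 groups. Hspa1a had 0.941 FPKM in limonin 1, against 0.769 to 0.813 FPKM in the other limonin libraries, which is still below every MCD library. Hspa8 had 207 FPKM in limonin 6, against 239 to 256 FPKM in the other limonin libraries. Without limonin 6 the Hspa8 difference was -0.22 (limma adjusted p = 0.113). Hsp90aa1 had 15.2 FPKM in MCD 1, against 9.72 to 11.3 FPKM in the other MCD libraries, and without MCD 1 the gene was likewise not called.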

How the results depend on the processing

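The count of chaperone genes called lower, 4 of 10, was 2 with no filter, 2 with a filter at 5 FPKM (7 of the 10 tested), 2 with a replicate block, 2 without limonin 5 and 6, and 1 without MCD 4 and 5, and ran between 2 and 5 over fits that left out 1 library; it was 2 without limonin 6, MCD 1, MCD 2, MCD 3 or MCD 5. In each fit without an MCD library 9 of the 10 genes were tested, since Hspa1a fell under the filter. With Hspa1a and Hspa1b as 1 row it was 3 of 9. The inducible count of 3 was 0 with a filter at 5 FPKM, where only 2 of the 5 genes were tested, 1 without MCD 4 and 5, and 1 to 3 over left-out libraries, with 1 without MCD 1 or MCD 5 (4 tested). The constitutive count of 0 was 1, Hspa8, with a filter at 5 FPKM, pseudocounts of 0.1 and 0.01, quantile normalization, no trend and weights per library, and 0 to 1 over left-out libraries. Genes with a match in any of their start regions numbered 6 of 7 with the 2-unit form and 2 with the 3-unit form. Within the 250 bases before the start, a window added after seeing the data, 5 genes had a 2-unit match, which 12.8% of all start regions had there. Differences that changed sign were all uncalled: Dnajb1 (-0.029 to 0.073 over left-out libraries), Hsp90aa1 (-0.052 to 0.13, and -0.067 without MCD 4 and 5), Hspe1 (-0.15 to 0.011, 0.028 median-ratio, 0.049 equal summed FPKM and 0.021 without MCD 4 and 5), Hspb8 (0.019 equal summed FPKM), Hsp90ab1 (0.0091 median-ratio, 0.031 equal summed FPKM), Stip1 (0.017 median-ratio, 0.038 equal summed FPKM) and Cirbp (0.0079 equal summed FPKM). The cause was not tested.

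The replicate block shared only numbers, not animals. MCD has no library numbered 6, so limonin 6 adds nothing to the differences in this fit. The Hspa1b difference with the block, -0.53, was that of the fit without limonin 6. The block lowered the calls over all genes to 1256 of 10489, from 2716. Hspa1a and Hspa1b were still called (limma adjusted p = 0.0315 and 0.0307). Of 229 values of the 10 genes under the alternatives, 192 kept direction and side of the threshold, 16 fell outside it, 7 came inside and 14 changed sign. With the block, cholangiocyte markers called lower numbered 4, macrophage markers 2, stellate markers 7, and hepatocyte markers called higher 0. No count model was run, since the values are FPKM.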

Other observations

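Of the small heat shock relatives, Odf1, known as an outer dense fibre protein of the sperm tail, was called higher in limonin livers. It had 0.962, 1.75, 4.39, 4.23, 7.21 and 7.76 FPKM in limonin 1 to 6, against 1.21, 1.033 and 1.45 FPKM in MCD 1 to 3, and it was listed at 0 in MCD 4 and 5. The difference was 1.54 ± 0.43 (SE, limma adjusted p = 0.0248), and the call was lost without limonin 4, MCD 2, MCD 4 or MCD 5. Hspb9, a testis-enriched small heat shock gene chosen after its values were seen, had 1.18, 0.858, 4.24, 2.36, 3.60 and 5.47 FPKM in limonin 1 to 6, against 0.959, 1.66, 1.34, 0.330 and 0.266 FPKM in MCD 1 to 5, and was not called (difference 0.97 ± 0.34, SE, limma adjusted p = 0.0538). For both genes limonin 3 to 6 stood above every MCD library. Hspa1l and Hspa2, HSP70 genes known for high levels in testis and likewise chosen after their values were seen, had their highest value in limonin 6, at 2.94 and 2.64 FPKM. Hspa1l averaged 1.67 FPKM with limonin and 1.09 FPKM on MCD, and Hspa2 averaged 1.65 FPKM with limonin and 1.05 FPKM on MCD, with limma adjusted p of 0.238 and 0.175.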
